A study of Mus musculus with 9 samples.

Results

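The 9 genes described here encode chemokines that skin makes at rest or that organise lymphoid tissue: Ccl17, Ccl19, Ccl22, Ccl27a, Cxcl12, Cxcl13, Cxcl14, Cxcl16 and Cx3cl1. They were taken by symbol from a table of read counts for 52550 genes, and every one of them had enough counts to be tested. The table covered 9 RNA sequencing libraries from the dermis of C57BL/6 mice (C57BL/6J in the methods) aged 8 weeks, labelled as wild type, with 3 libraries in each of 3 groups. VAS+H2O mice had vaseline on the skin for 5 days and water by gavage for 10 days. IMQ+H2O mice had imiquimod, a Toll-like receptor agonist that induces psoriasis-like inflammation, for 5 days with the same water gavage. IMQ+XYF mice had imiquimod and, by gavage, 200 µl doses of the herbal decoction Xiao-Yin-Fang (XYF, 23.3 mg/g) in place of water. The labels give 1 dose a day, whereas the study's description of the ear experiment gives more than 1. Gavage started 5 days before the topical treatment in all 3 groups. According to the methods, the mice were male and dermal sheets of ears from a pair of mice were used for RNA. If a library held RNA of several mice is not stated there, so the p-values measure only the spread between these samples, which may be technical.

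Chemokines are small secreted proteins that guide leukocytes through G protein-coupled receptors. CCL17 and CCL22 are made mainly by dendritic cells and both bind CCR4 on skin-homing T cells. CCL19 binds CCR7, which takes mature dendritic cells and T cells to lymph nodes. CXCL13 binds CXCR5 and gathers B cells. CCL27 is a keratinocyte product that holds CCR10-positive T cells in skin. CXCL12, the ligand of CXCR4, and CXCL14 come largely from stromal and epithelial cells, and CXCL16 and CX3CL1 are made as transmembrane proteins that bind CXCR6 and CX3CR1.

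Expression is given as CPM, counts scaled to a common library size with TMM factors. Total counts ran from 28756305 to 79836881 per library, and a floor of 3 counts stood at 0.0373 to 0.103 CPM. That floor covers counting error only. A gene was called where its adjusted p was 0.05 or lower and its log2 fold change at least 1 in size. The labelled tissue was checked against marker lists. Fibroblast markers summed to between 11065 and 26660 CPM in every library. Keratinocyte markers, of the layer that the methods remove, were still at 2249 to 14954 CPM. Skeletal muscle markers ran from 114 to 2651 CPM and were lowest in IMQ+XYF replicate 1, while cartilage markers were at 343 to 525 CPM in IMQ+H2O and at 648 to 1918 CPM elsewhere. Whether these tissues took part in the chemokine results was not tested. In bulk tissue, fewer cells of a type and less RNA per cell cannot be told apart.

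Of the members, 3 have neighbouring genes. In GRCm38, Ccl22 (ENSMUSG00000031779) lies on chromosome 8 from 94745590 to 94751699, Cx3cl1 (ENSMUSG00000031778) from 94772009 to 94782427 and Ccl17 (ENSMUSG00000031780) from 94810453 to 94812036. All 3 are on the plus strand, with gaps of 20309 and 28025 bases and no other protein-coding gene in between. Their upstream sequences are shown because they are neighbours whose counts behaved differently, and that of Cxcl13 because its fitted change was the largest among the members. RefSeq windows of GRCm38.p6 were found for 8 of the 9 members. The stretches run 5′ to 3′ and end at the base before the first annotated transcript start. Capitals mark motif matches.
Ccl22, chr8:94745434-94745589, plus strand: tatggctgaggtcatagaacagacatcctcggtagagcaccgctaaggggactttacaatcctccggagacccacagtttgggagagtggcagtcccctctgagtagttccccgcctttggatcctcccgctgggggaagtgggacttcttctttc
Cx3cl1, chr8:94771930-94772008, plus strand: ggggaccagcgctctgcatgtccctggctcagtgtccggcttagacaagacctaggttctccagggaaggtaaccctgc
Ccl17, chr8:94810203-94810452, plus strand: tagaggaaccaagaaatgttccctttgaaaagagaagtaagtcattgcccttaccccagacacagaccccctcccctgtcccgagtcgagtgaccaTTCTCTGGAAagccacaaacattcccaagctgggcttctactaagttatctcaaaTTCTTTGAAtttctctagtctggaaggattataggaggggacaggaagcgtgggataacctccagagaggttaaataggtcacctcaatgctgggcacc
Cxcl13, chr5:95956689-95956938, plus strand: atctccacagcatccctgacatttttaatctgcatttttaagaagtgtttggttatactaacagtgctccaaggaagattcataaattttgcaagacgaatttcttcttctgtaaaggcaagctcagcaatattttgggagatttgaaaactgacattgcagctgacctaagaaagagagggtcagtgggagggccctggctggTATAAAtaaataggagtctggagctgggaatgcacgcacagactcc

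The motifs searched on both strands were TTCNNNNGAA and TTCNNNGAA, letters that STAT factors recognise, the AP-1 letters TGANTCA, the TATA box TATAAA and the NF-kB consensus. Ccl17 held TTCTCTGGAA from 154 to 145 bases and TTCTTTGAA from 99 to 91 bases before the start, and the matches do not overlap. Cxcl13 held TATAAA from 46 to 41 bases before the start. Ccl22 held no match in its window, and no member's window held the NF-kB consensus. Among windows not shown, Cxcl14 held TTCTGAGAA from 191 to 183 bases and another start of Ccl27a held TGACTCA from 77 to 71 bases before. Cx3cl1 held TATAAA from 6 to 1 bases before its RefSeq start, outside the stretch shown. Over all 32841 windows of 250 bases upstream of a RefSeq start, TTCNNNNGAA was in 5.85%, TTCNNNGAA in 7.02%, TGANTCA in 6.75%, TATAAA in 12.4% and the NF-kB consensus in 7.25%. These matches describe letters and not binding.

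The effect of imiquimod was read from IMQ+H2O against VAS+H2O. With edgeR (Benjamini-Hochberg), 3 of the 9 members were called, Ccl17, Ccl22 and Ccl19, all of them higher. Of all 22430 genes tested, 0.994% were called, 0.646% higher and 0.348% lower. The libraries of the groups did not overlap for 7 of the 9, 6 higher and 1 lower, against 31.5% of all genes, 15.1% higher and 16.5% lower. The median log2 fold change was 1.52 over the members and −0.023 over all genes tested. DESeq2's Wald test called 6 members, adding Cxcl13 and Cxcl14 as higher and Ccl27a as lower, against 3.88% of the genes it tested.

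**Figure D1:**
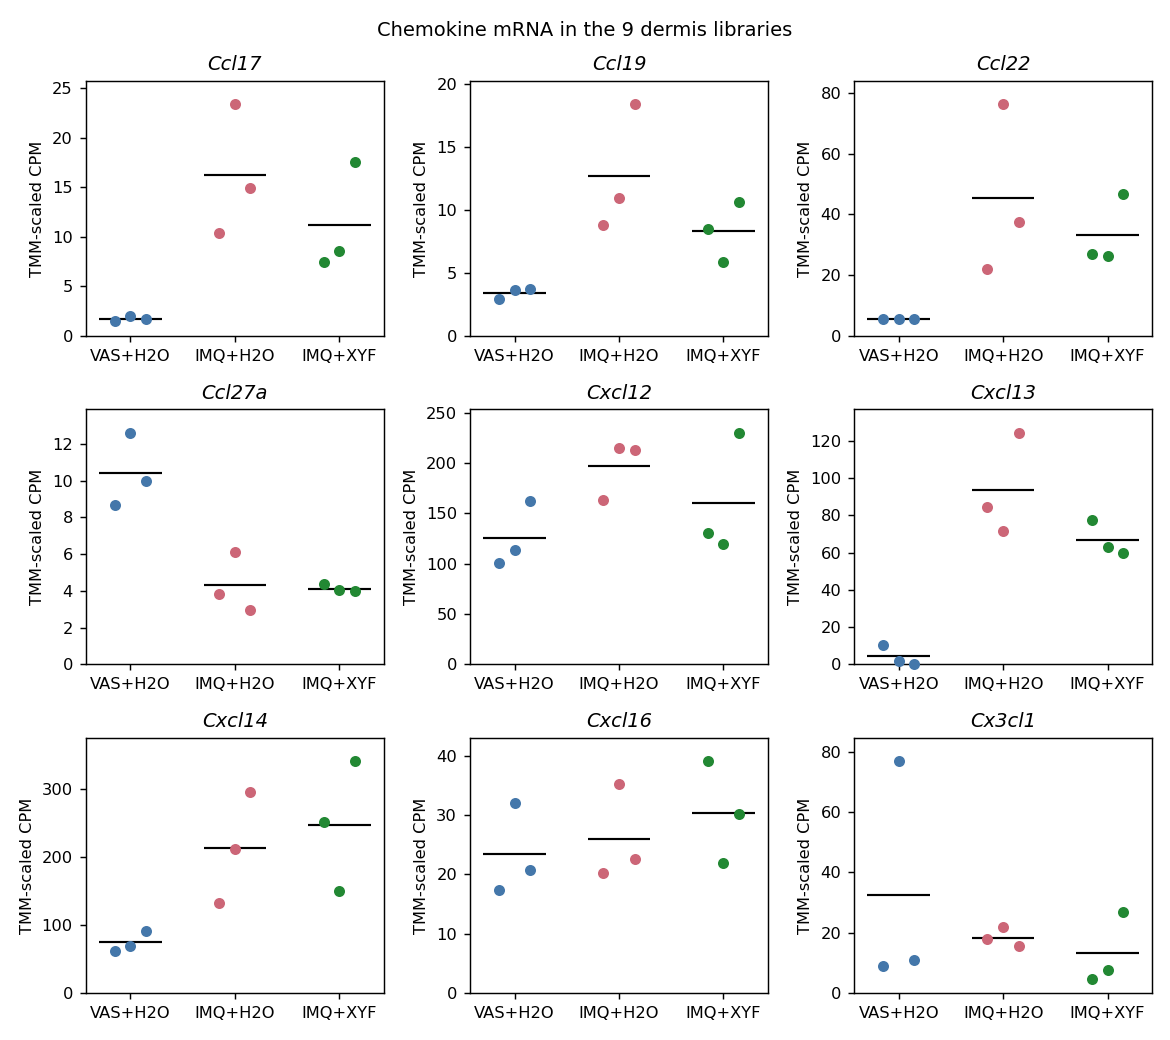
TMM-scaled CPM of the 9 chemokines (linear y axes from 0), with 1 point per library and a bar at the mean of each group of 3. Ccl17, Ccl19, Ccl22, Cxcl12, Cxcl13 and Cxcl14 are higher in every IMQ+H2O library than in any VAS+H2O library, Ccl27a is lower, and no member separates IMQ+XYF from IMQ+H2O.

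Ccl17 stood at 1.504, 2.03 and 1.74 CPM in the VAS+H2O libraries and at 10.4, 23.4 and 14.9 CPM in the IMQ+H2O libraries. The IMQ+XYF libraries had 7.44, 8.60 and 17.6 CPM. The lowest imiquimod-treated library of either kind was thus well above the highest VAS+H2O library. From VAS+H2O to IMQ+H2O the mean rose from 1.76 ± 0.263 to 16.2 ± 6.59 CPM (SD, n = 3). This 9.23-fold rise was 3.21 on the log2 scale (SE 0.41) (edgeR, Benjamini-Hochberg adjusted p 0.0177). IMQ+XYF was likewise higher than VAS+H2O, by 2.67 on the log2 scale (edgeR, Benjamini-Hochberg adjusted p 0.0255).

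Ccl22, the other CCR4 ligand, had 5.46, 5.50 and 5.48 CPM in VAS+H2O and 22.01, 76.3 and 37.6 CPM in IMQ+H2O. IMQ+XYF had 26.8, 26.3 and 46.7 CPM. The VAS+H2O libraries were nearly identical, and the imiquimod-treated libraries were spread widely above them. From VAS+H2O to IMQ+H2O, Ccl22 rose 8.27-fold, or by 3.05 on the log2 scale (SE 0.44) (edgeR, Benjamini-Hochberg adjusted p 0.0247). IMQ+XYF exceeded VAS+H2O by 2.60 (edgeR, Benjamini-Hochberg adjusted p 0.0326). The receptor of both ligands, Ccr4, was between 0.448 and 5.36 CPM and was called in no comparison.

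Cx3cl1 lies between these genes and did not move with them. Its libraries had 9.05, 76.8 and 11.1 CPM in VAS+H2O, 17.8, 21.8 and 15.4 CPM in IMQ+H2O, and 4.70, 7.63 and 26.9 CPM in IMQ+XYF. VAS+H2O replicate 2 alone was several times above every other library, and all 3 groups overlapped. Its change by imiquimod was −0.81 on the log2 scale with a 95% interval from −2.79 to 1.16 (edgeR, Benjamini-Hochberg adjusted p 0.628). Without VAS+H2O replicate 2 it was 0.86 for IMQ+H2O and 0.38 for IMQ+XYF against VAS+H2O (edgeR, Benjamini-Hochberg adjusted p 0.512 and 0.838), so the sign rested on that library. Over the 9 libraries, log2 CPM of Ccl17 correlated with that of Ccl22 at Pearson's r 0.986 and with that of Cx3cl1 at 0.0078, values that include the difference between groups.

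The calls for Ccl17 and Ccl22 depended on single libraries, while the direction did not. For Ccl17 by imiquimod, the adjusted p (edgeR, Benjamini-Hochberg) was 0.0573, 0.0668 and 0.0797 without VAS+H2O replicates 1, 2 and 3. It was 0.0613 and 0.0631 without IMQ+H2O replicates 2 and 3. For Ccl22 by imiquimod these values were 0.0646, 0.0887 and 0.0971 without the VAS+H2O replicates and 0.0713 without IMQ+H2O replicate 3 (edgeR, Benjamini-Hochberg). Over the 9 fits that each left out 1 library, the log2 fold change stayed between 2.85 and 3.44 for Ccl17 and between 2.44 and 3.38 for Ccl22. Against VAS+H2O, the IMQ+XYF call of both genes was lost when any 1 VAS+H2O replicate or IMQ+XYF replicate 1 or 3 was left out. That of Ccl22 was also lost without IMQ+H2O replicate 3. The highest adjusted p values in those fits were 0.109 for Ccl17 and 0.123 for Ccl22 (edgeR, Benjamini-Hochberg).

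Ccl19 (ENSMUSG00000071005; chromosome 4 from 42754525 to 42756577, minus strand) had 2.94, 3.64 and 3.76 CPM in VAS+H2O. It had 8.78, 11.0 and 18.4 CPM in IMQ+H2O and 8.46, 5.86 and 10.7 CPM in IMQ+XYF. Every imiquimod-treated library was above every VAS+H2O library. The rise by imiquimod was 3.69-fold, 1.88 on the log2 scale (SE 0.32) (edgeR, Benjamini-Hochberg adjusted p 0.0342). IMQ+XYF exceeded VAS+H2O by 1.27 on the log2 scale without a call (edgeR, Benjamini-Hochberg adjusted p 0.0752). Without IMQ+XYF replicate 2, the lowest of that group, it was 1.52 and was called (edgeR, Benjamini-Hochberg adjusted p 0.0303). The call by imiquimod was lost without VAS+H2O replicate 1, 2 or 3 or IMQ+H2O replicate 2 or 3, with adjusted p between 0.0891 and 0.108 (edgeR, Benjamini-Hochberg).

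The counts of Ccl19 depend on how reads were divided among near-identical genes. At 95% identity or more over at least 100 bases, the annotation holds 4 copies, the coding gene Gm2564 and the pseudogenes Ccl19-ps1, Ccl19-ps3 and Gm12407. Gm2564 collected 18576 counts in all, against 3811 for Ccl19. Each of the 4 copies was called higher by imiquimod, with log2 fold changes from 1.61 to 1.88, and higher in IMQ+XYF than in VAS+H2O. With the 5 genes summed, the libraries ran from 23.8 to 30.8 CPM in VAS+H2O, from 83.9 to 105 in IMQ+H2O and from 53.3 to 104 in IMQ+XYF. The summed log2 fold changes against VAS+H2O were 1.82 for IMQ+H2O and 1.52 for IMQ+XYF, both called (edgeR, Benjamini-Hochberg adjusted p 0.0166 and 0.0245). Ccl19 also lies wholly within 4930578G10Rik on the other strand, a gene with 188 counts in all libraries together.

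**Figure D2:**
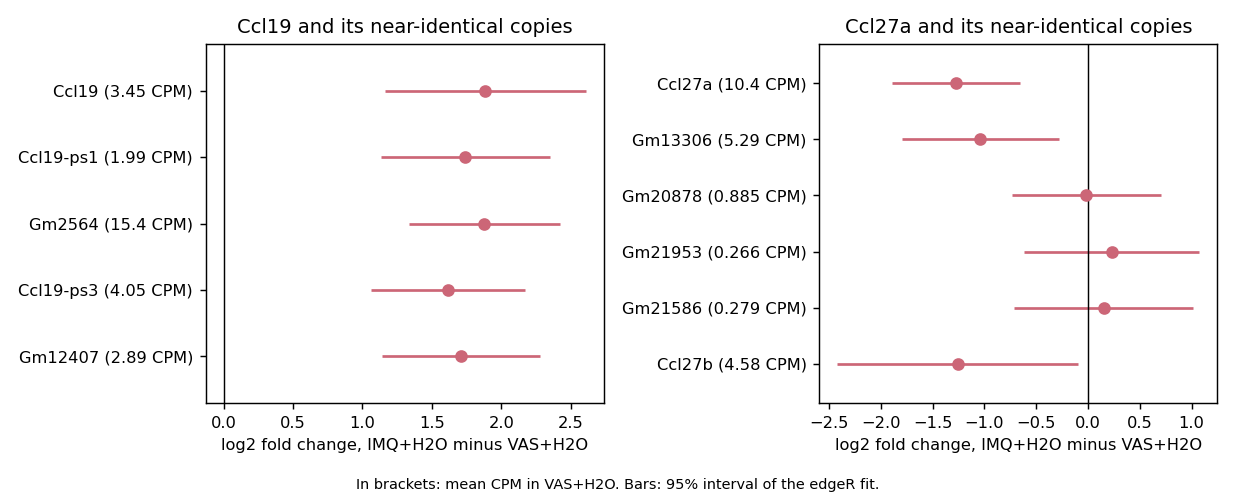
Log2 fold change of IMQ+H2O against VAS+H2O (x axis) for Ccl19 with its 4 near-identical copies and for Ccl27a with its 5, bars giving the 95% interval of the edgeR fit and brackets the mean CPM in VAS+H2O. The Ccl19 copies all lie between 1.61 and 1.88, whereas 3 of the Ccl27a copies, each under 1 CPM, lie near 0.

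Ccr7, the receptor of CCL19, was the 1 receptor of the members that edgeR called. It had 0.873, 0.917 and 1.11 CPM in VAS+H2O, 3.38, 11.1 and 6.71 CPM in IMQ+H2O and 8.59, 3.99 and 8.77 CPM in IMQ+XYF. The rise was 2.86 on the log2 scale in IMQ+H2O and 2.87 in IMQ+XYF against VAS+H2O (edgeR, Benjamini-Hochberg adjusted p 0.0314 and 0.0309). The first call was lost when any 1 VAS+H2O replicate or IMQ+H2O replicate 2 or 3 was left out. The second was lost when any 1 VAS+H2O replicate, IMQ+H2O replicate 3 or IMQ+XYF replicate 1 or 3 was left out. Adjusted p in those fits reached 0.108 and 0.121 (edgeR, Benjamini-Hochberg). Among 14 dendritic cell markers, whose median log2 fold change by imiquimod was 0.023, Ccr7 was the 1 gene called by edgeR. DESeq2 also called Il4i1 higher and Xcr1 lower by imiquimod. For IMQ+XYF against VAS+H2O it called Ccr7 and Il4i1 higher and Xcr1, Cd209a and Cd74 lower. The markers summed to 1011 to 1473 CPM in VAS+H2O, 785 to 1360 in IMQ+H2O and 520 to 869 in IMQ+XYF, and none was at 0. Their part in the rise of Ccl17, Ccl22 and Ccl19 was not tested.

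**Figure D3:**
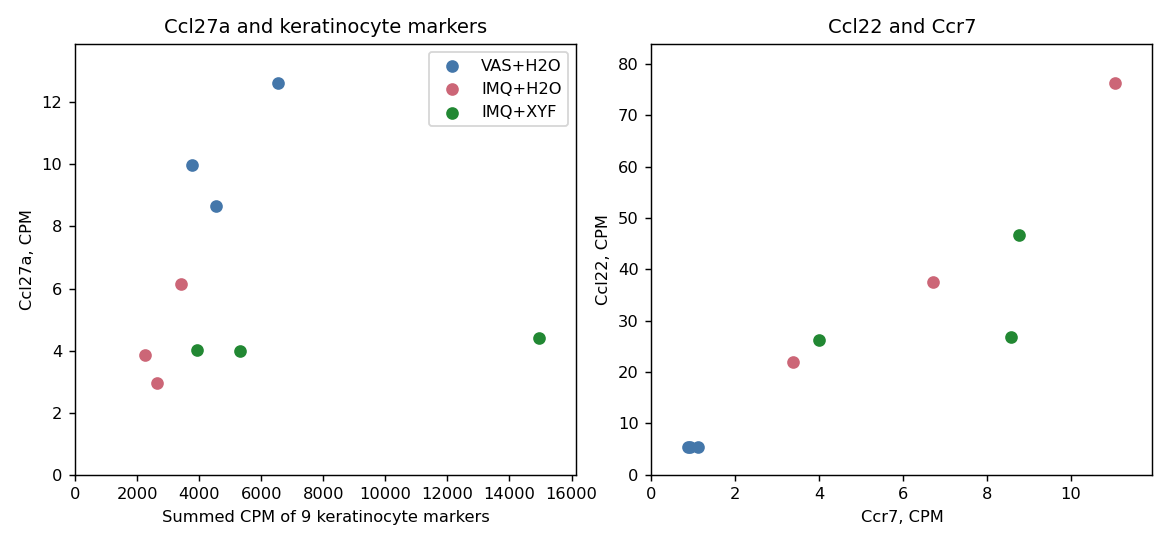
Left, CPM of Ccl27a against the summed CPM of 9 keratinocyte markers. Right, CPM of Ccl22 against CPM of Ccr7, with 1 point per library in both panels (linear axes from 0). The IMQ+XYF libraries keep low Ccl27a over marker sums from 3931 to 14954 CPM, and the 3 VAS+H2O libraries lie together at the lower left for Ccl22 and Ccr7.

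Cxcl13 (ENSMUSG00000023078; chromosome 5 from 95956951 to 95961068, plus strand) had the largest fitted change. The VAS+H2O libraries had 10.4, 2.001 and 0.389 CPM, an uneven group. IMQ+H2O had 84.4, 71.8 and 124 CPM and IMQ+XYF 77.4, 63.0 and 59.7 CPM, all far above VAS+H2O. Imiquimod brought a log2 fold change of 4.47 with a 95% interval from 2.35 to 6.59. It was not called (edgeR, Benjamini-Hochberg adjusted p 0.0582), and DESeq2 called it (Benjamini-Hochberg adjusted p 2.79e-04). Without VAS+H2O replicate 1 it was 6.41 and was called (edgeR, Benjamini-Hochberg adjusted p 0.0225), and without IMQ+XYF replicate 2 it was 4.48 and was called (adjusted p 0.0489). Between IMQ+XYF and VAS+H2O it was 3.99 (edgeR, Benjamini-Hochberg adjusted p 0.0661), and without VAS+H2O replicate 1 it was 5.92 and was called (adjusted p 0.0185).

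The B cells that CXCL13 attracts left little RNA. The 7 B cell and plasma cell markers summed to between 1.53 and 2.77 CPM in all 9 libraries, and the receptor Cxcr5 was between 0 and 0.413 CPM. Of the 3 of these markers that were tested, 2 were higher in IMQ+H2O than in VAS+H2O without overlap, against 15.1% of all genes. Neither edgeR nor DESeq2 called them. Of the dermal papilla and lymphoid stroma markers, Cr2 and Madcam1 were at or below 0.344 CPM in every library. Corin had 387, 139 and 134 CPM in VAS+H2O, 111, 46.0 and 60.3 in IMQ+H2O and 100, 342 and 132 in IMQ+XYF. Its log2 fold change by imiquimod was −1.60, called lower by DESeq2 and not called by edgeR. Crabp1 had 29.7, 31.1 and 56.6 CPM in VAS+H2O, 51.9, 54.5 and 96.3 in IMQ+H2O and 55.3, 32.3 and 93.8 in IMQ+XYF, so that the groups overlapped. Pdpn, which encodes podoplanin and is also expressed by lymphatic endothelium and keratinocytes, ran from 58.5 to 64.0 CPM in VAS+H2O, 95.7 to 185 in IMQ+H2O and 109 to 202 in IMQ+XYF. Like Cxcl13 it was higher in every imiquimod-treated library than in any VAS+H2O library. Its log2 fold change by imiquimod was 1.19, not called by edgeR (Benjamini-Hochberg adjusted p 0.0707) and called by DESeq2 (adjusted p 0.00162). The part of any of these genes in the Cxcl13 result was not tested. Macrophage and monocyte markers summed to 532 to 941 CPM in VAS+H2O, 697 to 985 in IMQ+H2O and 623 to 694 in IMQ+XYF, so that VAS+H2O overlapped both other groups.

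Ccl27a (ENSMUSG00000073888; chromosome 4 from 41769467 to 41774247, minus strand), the keratinocyte chemokine, was the member that was lower after imiquimod. It had 8.66, 12.6 and 9.98 CPM in VAS+H2O, 3.86, 6.14 and 2.95 CPM in IMQ+H2O and 4.39, 4.03 and 3.98 CPM in IMQ+XYF. Every imiquimod-treated library was below every VAS+H2O library. In IMQ+H2O the difference was −1.27 on the log2 scale (SE 0.27), which was not called (edgeR, Benjamini-Hochberg adjusted p 0.0621). DESeq2 called it lower (Benjamini-Hochberg adjusted p 9.39e-04). In IMQ+XYF against VAS+H2O it was −1.33 (SE 0.27) and was called (edgeR, Benjamini-Hochberg adjusted p 0.0477). That call was kept without IMQ+H2O replicate 2 and lost when any other library was left out, with adjusted p up to 0.150 (edgeR, Benjamini-Hochberg).

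Ccl27a also has near-identical copies, 5 genes on the sense strand that include Ccl27b and Gm13306. Ccl27b had a log2 fold change by imiquimod of −1.26 and Gm13306 of −1.04, neither called (edgeR, Benjamini-Hochberg adjusted p 0.21 and 0.138). The summed genes ran from 17.8 to 27.5 CPM in VAS+H2O, 7.51 to 14.3 in IMQ+H2O and 8.05 to 11.8 in IMQ+XYF. Their log2 fold changes against VAS+H2O were −1.08 for IMQ+H2O and −1.16 for IMQ+XYF, so that the latter call was lost (edgeR, Benjamini-Hochberg adjusted p 0.0867 and 0.0701). Keratinocyte markers summed to 3761 to 6555 CPM in VAS+H2O, 2249 to 3418 in IMQ+H2O and 3931 to 14954 in IMQ+XYF. Like Ccl27a, this sum was lower in every IMQ+H2O library than in any VAS+H2O library, but IMQ+XYF overlapped VAS+H2O. Hair follicle markers summed to 77.1 to 270 CPM in VAS+H2O, 2.63 to 21.1 in IMQ+H2O and 4.40 to 11.1 in IMQ+XYF. As with Ccl27a, every imiquimod-treated library lay below every VAS+H2O library. The part of keratinocytes or hair follicles in the Ccl27a result was not tested. Ccr10, its receptor, lay between 0.558 and 0.858 CPM in all libraries.

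**Figure D4:**
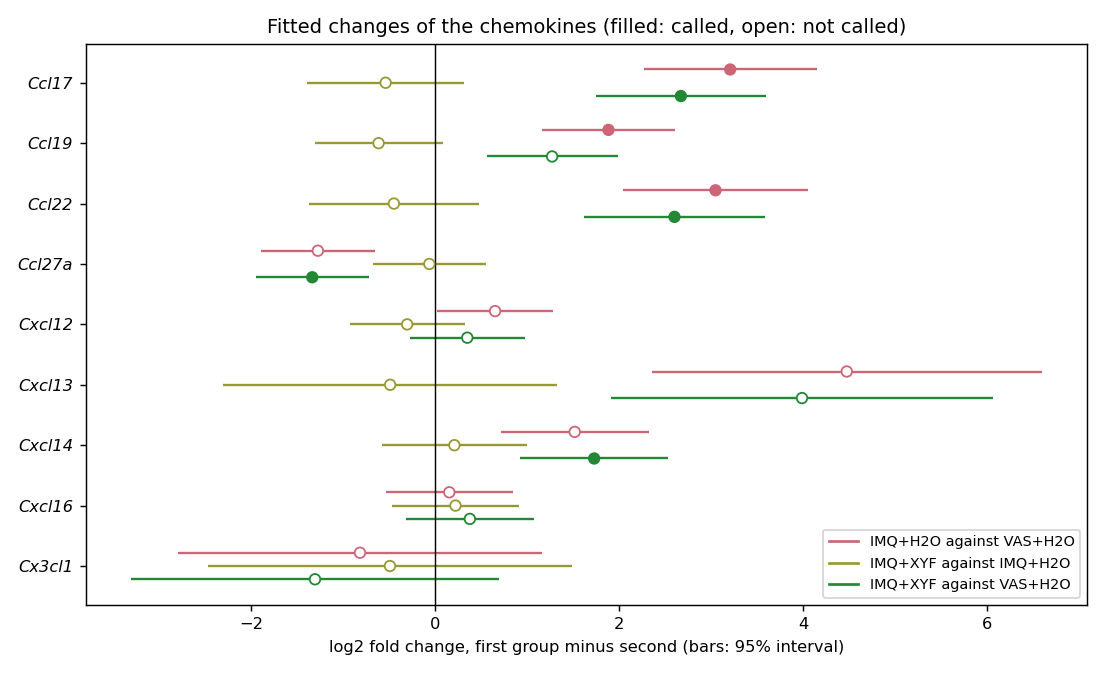
Log2 fold changes of the 9 chemokines in the 3 comparisons (x axis, first group minus second), with 95% intervals of the edgeR fit. Filled points were called and open points were not. The intervals of IMQ+XYF against IMQ+H2O include 0 for all 9 members.

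Of the stromal chemokines, Cxcl14 (ENSMUSG00000021508; chromosome 13 from 56288643 to 56296551, minus strand) separated the groups. It had 62.3, 69.7 and 91.5 CPM in VAS+H2O, 133, 212 and 296 CPM in IMQ+H2O and 251, 150.0 and 341 CPM in IMQ+XYF. The imiquimod-treated libraries all exceeded the highest VAS+H2O library. For imiquimod it came to 1.52 on the log2 scale (SE 0.35), with no call (edgeR, Benjamini-Hochberg adjusted p 0.0723). It was called without IMQ+XYF replicate 2 (edgeR, Benjamini-Hochberg adjusted p 0.0326), with only the groups compared in the fit (adjusted p 0.0392) and by DESeq2 (adjusted p 9.56e-04). In IMQ+XYF against VAS+H2O the log2 fold change was 1.73 (SE 0.36) and was called (edgeR, Benjamini-Hochberg adjusted p 0.0492). That call was kept without IMQ+XYF replicate 2 and lost when any other library was left out, with adjusted p up to 0.154 (edgeR, Benjamini-Hochberg).

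Cxcl12 (ENSMUSG00000061353; chromosome 6 from 117168535 to 117181367, plus strand) had 100.3, 113 and 163 CPM in VAS+H2O. It had 163, 215 and 213 CPM in IMQ+H2O and 130, 120 and 230 CPM in IMQ+XYF. The lowest IMQ+H2O library exceeded the highest VAS+H2O library by less than 1 CPM. The log2 fold change by imiquimod was 0.65 with a 95% interval from 0.03 to 1.28, and it was not called (edgeR, Benjamini-Hochberg adjusted p 0.224). Against VAS+H2O, IMQ+XYF had a log2 fold change of 0.35 (edgeR, Benjamini-Hochberg adjusted p 0.563). Its receptor Cxcr4 had 8.64, 21.2 and 13.4 CPM in VAS+H2O, 14.6, 15.1 and 12.5 CPM in IMQ+H2O and 7.47, 6.77 and 9.89 CPM in IMQ+XYF. VAS+H2O overlapped both other groups. The difference of Cxcr4 between IMQ+XYF and IMQ+H2O, −0.80 on the log2 scale, was not called (edgeR, Benjamini-Hochberg adjusted p 0.384).

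Cxcl16 (ENSMUSG00000018920; chromosome 11 from 70453983 to 70459984, minus strand) had the smallest fitted change by imiquimod among the members. It had 17.3, 32.0 and 20.8 CPM in VAS+H2O, 20.3, 35.2 and 22.7 CPM in IMQ+H2O and 39.1, 21.9 and 30.2 CPM in IMQ+XYF. The 3 groups overlapped throughout. The log2 fold change by imiquimod was 0.16 with a 95% interval from −0.54 to 0.85 (edgeR, Benjamini-Hochberg adjusted p 0.803). Of its exons, 552 bases lie within Zmynd15 on the other strand, a gene with 2040 counts against 12694 for Cxcl16.

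The effect of XYF on imiquimod-treated skin was read from IMQ+XYF against IMQ+H2O. None of the 9 members was called by edgeR, against 0.00892% of all genes, and DESeq2 also called 0 of the 8 it could test, against 1.14% of all genes. The count with an unadjusted edgeR p under 0.05 was 0, against 11.7% of all genes, and the groups overlapped for all 9, where 18% of all genes did not overlap. The mean was lower in IMQ+XYF for 7 of the 9 members, and the median log2 fold change was −0.45 against 0.0054 over all genes. This comparison and that of IMQ+H2O with VAS+H2O share the IMQ+H2O libraries.

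Markers of endothelium and macrophages were lower in the same comparison, as were those of some other cell types. The fitted value was below 0 for 7 of 7 blood endothelium markers, 5 of 5 lymphatic endothelium markers and 8 of 8 macrophage and monocyte markers. The groups did not overlap for 5, 3 and 3 of them, against 18% of all genes in either direction. Neither edgeR nor DESeq2 called any of them. Blood endothelium markers summed to 642 to 1240 CPM in VAS+H2O, 1599 to 1709 in IMQ+H2O and 623 to 1509 in IMQ+XYF. Lymphatic endothelium markers summed to 555 to 797, 758 to 999 and 371 to 787 CPM in the same order. None of these genes was at 0. Between IMQ+H2O and VAS+H2O, 6 of the 7 blood endothelium markers were higher without overlap, against 15.1% of all genes. Of the 7, 1, Plvap, was called higher (edgeR, Benjamini-Hochberg adjusted p 0.049), against 0.646% of all genes. In IMQ+XYF against IMQ+H2O, 7 of 7 skeletal muscle, 5 of 5 Schwann cell and 5 of 6 smooth muscle and pericyte markers were also below 0. The median was −1.74 for skeletal muscle. Of 14 dendritic cell markers, 8 were below 0, and 4 were lower without overlap. Cartilage markers went the other way, 8 of 8 above 0, as did 8 of 9 keratinocyte markers. DESeq2 called 6 and 3 of these higher. The part of any of these cells in the chemokine values was not tested.

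The size of an XYF effect that these libraries leave possible differed by gene. Ccl19 had the lowest p, with a log2 fold change of −0.61 and a 95% interval from −1.31 to 0.08 (edgeR, Benjamini-Hochberg adjusted p 0.462). Ccl17 had −0.54 with an interval from −1.39 to 0.32, and Ccl22 had −0.45 with an interval from −1.36 to 0.47. Without IMQ+H2O replicate 2, the library with the most Ccl22, that gene stood at 0.16. Ccl27a had −0.06 with an interval from −0.67 to 0.55, and Cxcl12 had −0.30 with an interval from −0.93 to 0.32. Cxcl14 had 0.21, with an interval from −0.57 to 0.995, and Cxcl16 had 0.22, with an interval from −0.47 to 0.91. The intervals of Cxcl13, −2.30 to 1.33, and Cx3cl1, −2.46 to 1.49, were the widest, around −0.49 for both genes.

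Single libraries moved these values. Over the fits that left out 1 library, Cx3cl1 went from −1.57 without IMQ+XYF replicate 3 to −0.083 without IMQ+XYF replicate 1. Ccl17 went from −1.02 without IMQ+XYF replicate 3 to −0.17 without IMQ+H2O replicate 2, and Cxcl12 from −0.66 without IMQ+XYF replicate 3 to −0.10 without IMQ+XYF replicate 2. Ccl19 ranged from −0.83 without IMQ+XYF replicate 3 to −0.22 without IMQ+H2O replicate 3, and Cxcl13 from −0.64 to −0.21 without IMQ+H2O replicates 2 and 3. Cxcl16 ranged from 0.0012 without IMQ+XYF replicate 1 to 0.51 without IMQ+H2O replicate 2. No member was called in any of these fits.

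In IMQ+XYF against VAS+H2O, edgeR with Benjamini-Hochberg adjustment called 4 members, Ccl17, Ccl22 and Cxcl14 higher and Ccl27a lower, against 1.2% of all genes, 0.695% higher and 0.508% lower. The groups did not overlap for 6, the same as after imiquimod without Cxcl12, 5 higher and 1 lower. Of all genes 22.1% did not overlap, 11.7% higher and 10.3% lower. DESeq2 called 6 members, the 4 with Ccl19 and Cxcl13, against 3.46% of the genes it tested.

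Levels per length of exon could be ranked within each group. In VAS+H2O, Cxcl14 led with 40.8 ± 8.33 CPM per kb (SD, n = 3), above Cxcl12 with 15.3 ± 4.03 and without overlap. Cxcl12, Cx3cl1 at 8.22 and Cxcl16 at 7.74 CPM per kb overlapped in turn. Ccl27a at 4.38 CPM per kb lay below Cxcl16 without overlap. Ccl27a, Ccl19 at 3.98, Cxcl13 at 3.72 and Ccl17 at 3.42 CPM per kb overlapped from each to the next, and the wide range of Cxcl13 also reached that of Cxcl16. Ccl22 at 2.36 CPM per kb had the lowest mean and lay apart from Ccl17, but the ranges of Cxcl13 and Cx3cl1 included it.

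Imiquimod treatment brought another order. In IMQ+H2O, Cxcl14 had 117 ± 44.6 and Cxcl13 had 81.3 ± 23.8 CPM per kb, which overlapped, and Ccl17 followed apart from them with 31.6 ± 12.8 CPM per kb and overlapped Cxcl12. Cxcl12 at 24.1, Ccl22 at 19.5, Ccl19 at 14.7 and Cxcl16 at 8.62 CPM per kb overlapped from each to the next. Cx3cl1 at 4.67 and Ccl27a at 1.81 CPM per kb came last, each apart from the gene above. In IMQ+XYF the order was the same but for Cxcl16 at 10.1 and Ccl19 at 9.61 CPM per kb, which changed places and overlapped. There Cx3cl1 overlapped Ccl19 above it and Ccl27a below it, and Cxcl14 and Cxcl13 did not overlap. The places of Ccl19 and Ccl27a rest on the counts that the deposited table gives to them and not to their copies. Ccl19 held 10.3% to 17.5% and Ccl27a 37.2% to 50.3% of the counts summed with the copies, so both places are uncertain.

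**Figure D5:**
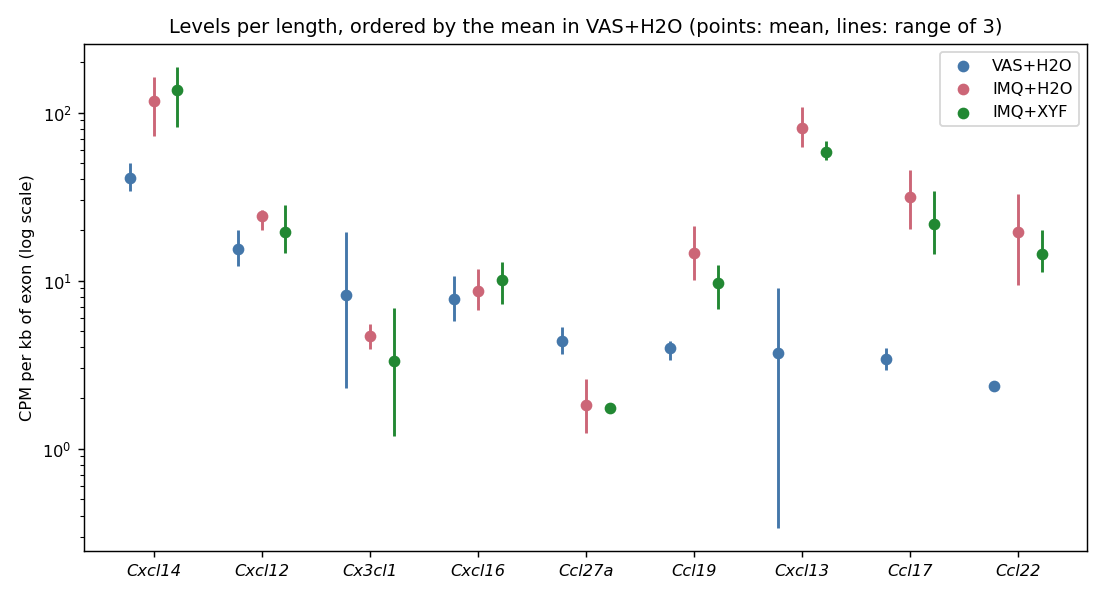
CPM per kb of exon (log y axis) of the 9 chemokines, ordered by their mean in VAS+H2O. Points are means and lines the range of the 3 libraries of a group. Cxcl13 goes from 3.72 in VAS+H2O to 81.3 CPM per kb in IMQ+H2O, and Ccl27a, by the counts given to it and not to its copies, has the lowest mean in both imiquimod-treated groups.

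Other genes of these pathways were examined as lists. Of the 7 receptors of the members, 1, Ccr7, was called higher by imiquimod with edgeR and with DESeq2, and Cxcr6 and Cx3cr1 stayed between 0.488 and 2.17 CPM. Among 5 atypical receptors and removal genes, 0 were called by imiquimod with edgeR. DESeq2 called Ackr2, a scavenger of inflammatory CC chemokines, whose edgeR log2 fold change was 0.99 (edgeR, Benjamini-Hochberg adjusted p 0.0677). Ackr4, which scavenges CCL19 and CCL21, had 39.3, 35.8 and 41.5 CPM in VAS+H2O, 19.0, 27.0 and 21.7 CPM in IMQ+H2O and 23.0, 15.2 and 18.9 CPM in IMQ+XYF. Every imiquimod-treated library was below VAS+H2O. The log2 fold change of Ackr4 in IMQ+XYF against VAS+H2O was −1.03 and called (edgeR, Benjamini-Hochberg adjusted p 0.036). In IMQ+H2O against VAS+H2O it was −0.78 and not called (edgeR, Benjamini-Hochberg adjusted p 0.0707). The IMQ+XYF call was kept without IMQ+H2O replicate 1 and lost when any other library was left out, by the fold limit without IMQ+XYF replicate 2 (−0.84) and otherwise with adjusted p up to 0.127 (edgeR, Benjamini-Hochberg). Under DESeq2 Ackr4 also missed the fold limit there.

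In the list of 10 genes of the type 2 cytokine axis upstream of Ccl17 and Ccl22, edgeR called 1 gene higher by imiquimod and 0 lower. It was Il33, an alarmin of the IL-1 family, with 12.1, 18.2 and 22.2 CPM in VAS+H2O and 59.6, 91.0 and 126 CPM in IMQ+H2O. IMQ+XYF had 78.2, 42.0 and 122 CPM, all above VAS+H2O. Its log2 fold change was 2.39 in IMQ+H2O and 2.21 in IMQ+XYF against VAS+H2O (edgeR, Benjamini-Hochberg adjusted p 0.0407 and 0.0431). The first call was lost when any 1 library of the compared groups was left out, and the second when any 1 library but IMQ+XYF replicate 2 was left out, with adjusted p up to 0.136 and 0.142 (edgeR, Benjamini-Hochberg). The other 9 genes, Il4 and Il13 among them, were not called by edgeR. DESeq2 called Il33 and Il4ra, a receptor subunit for IL-4 and IL-13, higher by imiquimod, with adjusted p 0.0188 for Il4ra (edgeR 0.124). In IMQ+XYF against VAS+H2O it called Il33, Il4ra and Tslp higher and Irf4 lower.

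The remaining lists held no call by edgeR in any comparison, while DESeq2 called Ccl1 and Tnfsf11 higher in both comparisons with VAS+H2O and Cxcl17 higher in IMQ+XYF against VAS+H2O. They were 7 sheddases and heparan sulfate carriers, 9 tested of 11 other homeostatic chemokines, and 12 genes of lymphotoxin and non-canonical NF-kB signalling, with median log2 fold changes by imiquimod of −0.097, 0.11 and 0.36. Ccl21a, the other main CCR7 ligand, had 272, 302 and 375 CPM in VAS+H2O, 304, 432 and 286 in IMQ+H2O and 296, 238 and 491 in IMQ+XYF. These groups overlapped, and the log2 fold change of Ccl21a by imiquimod was 0.11 with a 95% interval from −0.52 to 0.73.

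Among 13667 genes with a mean of at least 100 counts, those most like each member were found by Pearson's r of log2 CPM over the 9 libraries. These values include the differences between groups and are a description. Ccl17 was most like Ccl22 (r 0.986) and Cfp (0.976), and Ccl22 most like Ccl17 and Fgf23 (0.982). Ccl19 was most like Ifitm2 (0.983) and Csf3r (0.982), the latter a neutrophil marker. Cxcl14 was most like Tubb5 (0.989) and Cfl1 (0.988), and Cxcl12 most like Igfbp7 (0.970) and Gnai2 (0.962). Cxcl13 was most like Lrrc25 (0.967) and Gins1 (0.957), and Ccl27a most like AC132392.1 (0.968) and Sgpl1 (0.964). Cxcl16 was most like Ptbp3 (0.949) and Plekhb2 (0.946). Cx3cl1 had the lowest values, with Casp6 (0.910) and Il6st (0.909). Neutrophil markers summed to 6.65 to 22.1 CPM in VAS+H2O, 204 to 643 in IMQ+H2O and 169 to 471 in IMQ+XYF. As with Ccl17, Ccl19, Ccl22, Cxcl13 and Cxcl14, every imiquimod-treated library was above every VAS+H2O library. Within IMQ+H2O and within IMQ+XYF, Ccl19 and Cxcl14 ranked the libraries as this sum did. Ccl17, Ccl22 and Cxcl13 did not do so in both groups. This order was not particular to neutrophil markers. The type 2 cytokine axis list gave it too, with sums of 383, 500 and 535 CPM in IMQ+H2O and 521, 340 and 602 in IMQ+XYF. So did the atypical receptors and removal genes, with 209, 237 and 310 CPM and 217, 148 and 289 CPM. The share of all genes with this order was not counted. The part of neutrophils in these results was not tested.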

How the data were processed

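The deposited table holds whole-number read counts per Ensembl gene, with no normalization by the authors. Per the methods and the submitters' processing notes, the authors aligned reads with STAR 2.5 to GRCm38 and used StringTie and DESeq2. The counting tool, its strand setting and its handling of reads with several alignments are not given in the sources used here. The labels call the libraries strand-specific, whereas the kit named in the methods does not mark strand. Genes were filtered with filterByExpr, scaled by TMM and fitted with all 9 libraries in 1 quasi-likelihood model (edgeR 4.0.16, R 4.3.3), with Benjamini-Hochberg adjustment over 22430 genes. Calls used the limits of the study's methods. Standard errors were derived from the F statistic. DESeq2 1.42.0 was an alternative, beside RLE scaling, other filters, 2-group fits, a replicate block, no fold limit and leaving out each library. Summing near-identical copies (BLAST+ 2.17.0, GENCODE vM21 transcripts) was chosen after seeing the data. The scripts were tested on simulated data. Groups came from the labels. All 9 members, called or receptor genes of the pathway lists and the 2 genes most like each member were named. Called genes of the cell type marker lists were not all named. By imiquimod, edgeR called 3 neutrophil markers higher, and 2 cartilage and 5 hair follicle markers lower. In IMQ+XYF against VAS+H2O it called 3 neutrophil markers higher, and 4 hair follicle markers and 1 T cell marker, Cd4, lower. Cd4 had 7.62, 13.3 and 6.97 CPM in VAS+H2O, 4.27, 7.06 and 3.24 in IMQ+H2O and 2.24, 3.17 and 2.91 in IMQ+XYF. Pdpn, Crabp1, Plvap, Cd4 and list genes that DESeq2 alone called were named after their values were seen. The members and lists were chosen with earlier results of these data known.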

Additional observations from a re-analysis of the deposited data

How the results depend on the processing

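Each of the 3 comparisons was refitted under 17 alternatives. The number of called genes for IMQ+H2O against VAS+H2O was 223, and it was 945 under DESeq2, 496 with only the groups compared and 86 with a replicate block. Leaving out 1 library gave 25 to 455. For IMQ+XYF against IMQ+H2O it was 2, and it was 223 under DESeq2, 1 with the CPM filter, 1 with only the groups compared, 0 with a replicate block (where the members called were also 0) and 0 to 4 without 1 library. For IMQ+XYF against VAS+H2O it was 270, and it was 701 under DESeq2, 33 with only the groups compared, 54 with a replicate block, 453 with no fold limit and 12 to 592 without 1 library. Members called went from 3 to 6 under DESeq2 for IMQ+H2O against VAS+H2O, and to between 0 and 5 without 1 library. They were 0 for IMQ+XYF against IMQ+H2O under all alternatives. In IMQ+XYF against VAS+H2O they went from 4 to 2 with no filter, 1 with only the groups compared, 0 with a replicate block and between 0 and 4 without 1 library. The replicate block, with adjusted p from edgeR (Benjamini-Hochberg), ended the imiquimod calls of Ccl22 (0.0518) and Ccr7 (0.0812) and left those of Ccl17 and Ccl19. Same-numbered libraries had residual correlations from −0.183 to 0.125, so the numbers were not taken to pair samples, and a call lost under the block is not a weaker effect.

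Signs changed as follows. For IMQ+XYF against IMQ+H2O, Ccl27a was at 0.0013 with a replicate block and at 0.29 without IMQ+H2O replicate 2, Ccl22 at 0.16 without that library, and Cxcl14 at −0.038 without IMQ+H2O replicate 1 and −0.089 without IMQ+XYF replicate 3. For the same comparison Ccr7 was at −0.0093 with the CPM filter and at −0.32, −0.00049, −0.14 and −0.16 without IMQ+H2O replicates 1 and 3 and IMQ+XYF replicates 1 and 3. Il33 was at 0.13 without IMQ+H2O replicate 3 and 0.15 without IMQ+XYF replicate 2. For IMQ+H2O against VAS+H2O, Cxcl16 was at −0.022 without VAS+H2O replicate 1 and −0.13 without IMQ+H2O replicate 2, and Cx3cl1 at 0.86 without VAS+H2O replicate 2. In IMQ+XYF against VAS+H2O, Cx3cl1 was at 0.38 without that library and Cxcl12 at −0.0052 without IMQ+XYF replicate 3. Without 1 library, the full ranges were −0.13 to 0.45 for Cxcl16 and −1.26 to 0.86 for Cx3cl1 by imiquimod, and −2.39 to 0.38 for Cx3cl1 and −0.0052 to 0.58 for Cxcl12 in IMQ+XYF against VAS+H2O. Between IMQ+XYF and IMQ+H2O they were −0.77 to 0.16 for Ccl22, −0.26 to 0.29 for Ccl27a, −0.089 to 0.54 for Cxcl14, −0.32 to 0.49 for Ccr7 and −0.61 to 0.15 for Il33. None of these changes was called. The cause of these movements was not tested. Ccl17, Ccl19, Ccl22, Cxcl13 and Cxcl14 stayed higher, and Ccl27a lower, in both comparisons with VAS+H2O under all 17 alternatives.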
